A study of Mus musculus with 5 samples.

Results

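The genes described here are those of the mouse MHC class II pathway: the chain genes H2-Aa, H2-Ab1 and H2-Eb1, the peptide-exchange genes H2-DMa, H2-DMb1 and H2-DMb2, the invariant chain gene Cd74, and Ciita, which encodes the class II transactivator. They were chosen by symbol, and all 8 were found among the 49671 genes of the FPKM table (fragments per kilobase of gene per 1000000 read pairs) and, by gene identifier, among the 24984 genes of the count table. RNA was sequenced from myeloid cells sorted out of corpus callosum lesions of 10-week-old male wild-type C57BL/6J mice, 10 days after a 2 µl injection of 1% lysolecithin (LPC), a myelin toxin whose lesion is later remyelinated. The CD45hi gate of CD11b+ Ly6G- CD3- cells gave 2 monocyte libraries, called monocyte-derived macrophages in the sample labels, and the CD45lo gate gave 3 microglia libraries. All 5 libraries came from lesioned, wild-type tissue, the methods describe a monocyte yield far below that of microglia, and the libraries are numbered here in the order of their labels.

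MHC class II molecules present peptides from internalised proteins to CD4+ T cells. The α and β chains of each class II dimer assemble around the invariant chain in the endoplasmic reticulum, proteases cut the invariant chain down in endosomes, and the H2-DM dimer then exchanges its last fragment for a peptide. CIITA is brought to class II promoters by factors bound to a conserved X box and Y box, and interferon gamma is its best-known inducer in macrophages and microglia.

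The class II genes lie together on chromosome 17, and 6 of the 8 genes are there (GRCm38, GENCODE vM21). From the proximal end they are H2-DMa (chr17:34119541-34139101), H2-DMb2 (chr17:34143307-34151555), H2-DMb1 (chr17:34153072-34160230), H2-Ab1 (chr17:34257689-34269419), H2-Aa (chr17:34282744-34287823, minus strand) and H2-Eb1 (chr17:34305867-34316674). Ciita lies on the plus strand of another chromosome (chr16:10480059-10528418). The promoter stretches below are shown because CIITA acts through this layout. They come from RefSeq windows of 300 bases around each start site (GRCm38.p6), they run 5′ to 3′ on the gene's own strand, and the capitals mark AAC, as in X boxes, followed after 25 to 28 bases by ATTGG, the core of the Y box.

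H2-Aa, chr17:34287859-34287910, minus strand: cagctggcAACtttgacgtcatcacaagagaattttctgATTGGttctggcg
H2-Eb1, chr17:34305770-34305820, plus strand: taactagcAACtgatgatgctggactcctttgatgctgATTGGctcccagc
H2-DMb1, chr17:34153091-34153142, plus strand: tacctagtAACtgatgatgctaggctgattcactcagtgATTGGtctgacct
H2-DMb2, chr17:34145120-34145171, plus strand: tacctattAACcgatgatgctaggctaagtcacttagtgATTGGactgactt
H2-Oa, chr17:34092297-34092348, plus strand: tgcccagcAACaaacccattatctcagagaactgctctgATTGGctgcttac
H2-Ob, chr17:34238812-34238860, plus strand: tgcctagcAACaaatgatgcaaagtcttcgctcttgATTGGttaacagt

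The layout stood on the gene's strand in the windows of H2-Aa, H2-Eb1, H2-DMb1 and H2-DMb2, in that of H2-Eb2, another β chain gene, and in those of H2-Oa and H2-Ob, which encode the chains of H2-DO, an inhibitor of H2-DM. H2-DMa had 2 windows, and neither held it on either strand. The promoters of H2-Ab1, Cd74 and Ciita were not analysed here. Of 32851 windows of the same length, 1.15% held the layout on the gene's strand and 2.49% on either strand, and 37.4% held ATTGG on either strand. The layout searched was chosen after these windows had been read, so the matches are a description. The stretches of H2-DMb1 and H2-DMb2 were identical at 45 of 52 aligned positions, and 22.7% of the 50-base stretches in H2-DMb1 transcripts also occurred in H2-DMb2 transcripts. Read pairs counted for either of these genes could therefore belong partly to its near copy. In Cd74, Ciita, H2-Ab1, H2-Eb1 and H2-DMa, 0% of such stretches were shared with another gene, and in H2-Aa the share was 0.488%.

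The libraries differed widely in depth, which bears on every value below. Counts assigned to genes ranged from 3417150 to 9021700 per library, and a gene with no count could have had up to 3 counts, which is 0.878 and 0.461 CPM (counts per 1000000 counts of the library) in the monocyte libraries and 0.333 to 0.509 CPM in the microglia libraries. Genes with at least 10 counts numbered 1392 and 4230 in monocytes, against 11653, 11493 and 5994 in microglia. Mitochondrially encoded genes took 39.9% and 28.5% of counts in monocytes and 11.1%, 39.0% and 17.6% in microglia. Whether depth and mitochondrial share contributed to the class II values was not tested.

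Class II transcripts were most abundant in 1 of the 2 monocyte libraries and very sparse in the other. Over the 8 genes, 83 and 19125 read pairs were counted in monocyte libraries 1 and 2, against 3652, 1166 and 786 in microglia libraries 1, 2 and 3. That is 0.00243% and 0.294% of all counts in monocytes, against 0.0551%, 0.0129% and 0.0133% in microglia. By these library totals the monocyte libraries held the lowest and the highest sum, so the groups overlapped completely. The TMM scaling factors used in the test below were 0.0929 and 0.611 in monocytes, against 3.76, 2.73 and 1.71 in microglia. Scaling by them would raise the monocyte shares and lower the microglia shares, so this overlap holds for library totals only. In bulk libraries a smaller number of class II-positive cells and less class II RNA per cell cannot be told apart. Of 40 values (8 genes in 5 libraries), 15 rested on 3 read pairs or fewer.

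**Figure D1:**
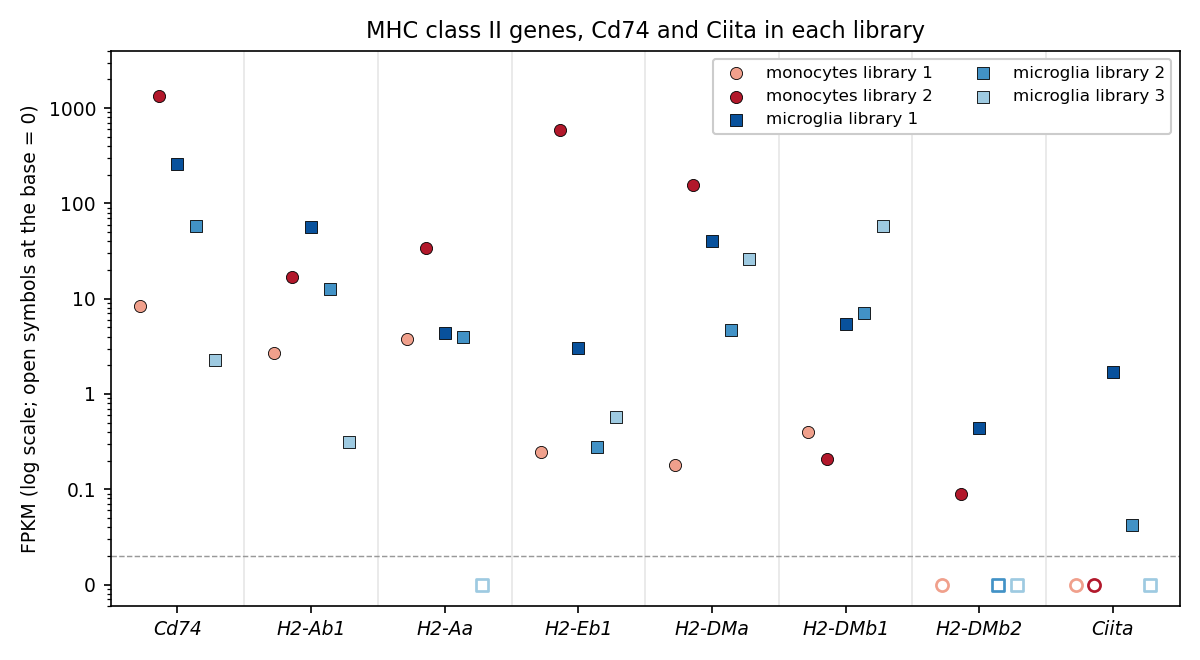
FPKM on a log axis for each of the 8 genes in 2 monocyte libraries (circles) and 3 microglia libraries (squares), with open symbols at the base for values of 0. Monocyte library 2 was the highest library for Cd74, H2-Aa, H2-Eb1 and H2-DMa, and only H2-DMb1 had both circles below all of its squares.

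Cd74 (chr18:60803848-60812652, plus strand) encodes the invariant chain, the chaperone of newly made class II dimers, and had the highest mean of the 8 genes in both groups and the highest level in 4 of the 5 libraries, all but microglia library 3. Its FPKM was 8.30 and 1339 in monocytes, against 258, 58.5 and 2.29 in microglia. It ranked 544th and 18th among all genes above 0 FPKM in the monocyte libraries, against 100th, 379th and 4582nd in the microglia libraries. Monocyte library 2 exceeded every microglia library, and monocyte library 1 lay between microglia libraries 2 and 3. The spread within each group was therefore over 100-fold, 161-fold in monocytes and 113-fold in microglia. Group means were 674 ± 941 FPKM in monocytes (SD, n = 2) and 106 ± 134 FPKM in microglia (SD, n = 3).

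H2-Aa and H2-Ab1 encode the α and β chains of I-A, the class II dimer of C57BL/6 mice. H2-Aa had 3.75 and 33.9 FPKM in monocytes, from 24 and 414 read pairs, against 4.34, 3.96 and 0 FPKM in microglia, from 54, 67 and 0 read pairs. H2-Ab1 had 2.68 and 17.0 FPKM in monocytes, from 15 and 181 read pairs, against 56.3, 12.5 and 0.311 FPKM in microglia, from 611, 185 and 3 read pairs. The library highest in FPKM was thus monocyte library 2 for the α chain gene and microglia library 1 for its partner. FPKM follows library totals, and this split was read for them only. The log2 fold change of H2-Ab1, monocytes over microglia, was -1.24 with library totals and 2.11 with TMM. In FPKM, H2-Aa over H2-Ab1 was 1.40 and 2.00 in monocytes, against 0.0772 and 0.316 in microglia libraries 1 and 2. No ratio was taken in microglia library 3, where H2-Aa had no count and the limit of 3 counts is 0.509 CPM. Both I-A chain genes were detected in both monocyte libraries and in 2 of the 3 microglia libraries beyond 3 read pairs.

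H2-Eb1 encodes the β chain of I-E, the other mouse class II dimer. It had 1 and 4571 read pairs in monocytes, against 24, 3 and 4 in microglia, which is 0.247 and 593 FPKM in monocytes and 3.06, 0.281 and 0.574 FPKM in microglia. In monocyte library 2 it was the 52nd most abundant gene, and it exceeded H2-Ab1 there 34.9-fold in FPKM, whereas in microglia library 1 its FPKM was 0.0543 of that of H2-Ab1. The single read pair of monocyte library 1 has an exact 95% interval of 0.00741 to 1.63 CPM, which spans 2 of the 3 microglia values (3.62, 0.333 and 0.679 CPM). Monocyte library 2 was thus the only library in which H2-Eb1 was abundant. Its α chain partner is not made by this strain, as background, and H2-Ea-ps, the annotated remnant of that gene, was listed at 0 FPKM in all 5 libraries, as was H2-Eb2.

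H2-DMa and H2-DMb1 encode the chains of H2-DM, and their transcripts did not follow each other. H2-DMa had 1 and 1654 read pairs in monocytes, against 435, 70 and 253 in microglia, or 0.178 and 155 FPKM against 40.0, 4.73 and 26.2 FPKM. H2-DMb1 had 2 and 2 read pairs in monocytes, against 53, 95 and 507 in microglia, or 0.394 and 0.207 FPKM against 5.38, 7.09 and 58.0 FPKM. Monocyte library 2 thus carried the highest level of the α chain gene, while the β chain gene of the same dimer stayed under the limit of 3 counts in both monocyte libraries. Of the 6 class II genes that passed the expression filter, H2-DMb1 was the only 1 whose monocyte values both lay under all microglia values in CPM, where 48% of the 10105 genes tested did so. None had both monocyte values above all microglia values in CPM, where 0.673% of the genes tested did. Both counts were by library totals, and the TMM factors of the test below would raise monocyte values against microglia values. The upward count was not repeated with TMM. A share of 1 in 6 under a background of 48% is not a result about these genes.

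The near copy H2-DMb2 was hardly detected. Its counts were 0 and 1 in monocytes, against 5, 0 and 0 in microglia, and only the 5 read pairs of microglia library 1 (0.441 FPKM) exceeded the limit of 3 counts. In microglia the FPKM of H2-DMa over H2-DMb1 was 7.43, 0.667 and 0.452 in libraries 1, 2 and 3.

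Ciita was not detected in monocytes, including the library with the most class II RNA. It had 0 and 0 read pairs in monocytes, against 59, 2 and 0 in microglia, so that 1.69 FPKM in microglia library 1 was the only level beyond the limit of 3 counts. Against that limit, scaled by library totals, Ciita was at least 10.1-fold and 19.3-fold lower in monocyte libraries 1 and 2 than in microglia library 1. The TMM scaling factors used in the test below were 0.0929 and 0.611 in these monocyte libraries and 3.76 in microglia library 1. Scaling by them would raise the monocyte limits and lower the microglia value, so these folds hold for library totals only. Since microglia libraries 2 and 3 were themselves at or under the limit, no fold is given against them. Set against Cd74 in the same library, Ciita gave 2.45 read pairs per 100 of Cd74 in microglia library 1 and 0.269 in microglia library 2. In monocyte library 2, with 12302 read pairs of Cd74, it gave fewer than 0.0244 per 100, a limit that rests on 3 counts. In monocyte library 1 and microglia library 3 the corresponding limits of 7.50 and 15.8 per 100 are too high to be read, because Cd74 had 40 and 19 read pairs.

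**Figure D2:**
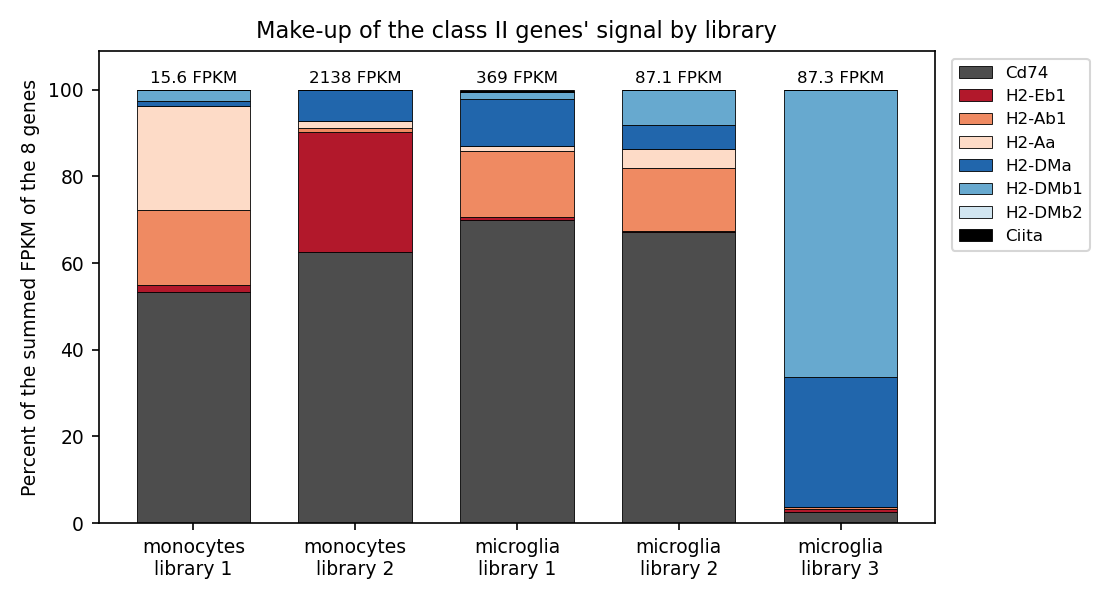
Stacked bars give each gene's percentage of the summed FPKM of the 8 genes in 2 monocyte libraries and 3 microglia libraries, with the sum (15.6 and 2138, against 369, 87.1 and 87.3 FPKM) above each bar. Cd74 made up the largest share in 4 libraries, and H2-DMb1 in microglia library 3.

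The make-up of the signal separated microglia library 3 from the other 4 libraries. Cd74 gave 53.4% and 62.6% of the summed FPKM in monocytes, against 69.9%, 67.1% and 2.62% in microglia. In microglia library 3 the H2-DM genes had 84.1 FPKM and the 3 chain genes 0.885 FPKM, whereas in monocyte library 2 the H2-DM genes had 155 FPKM and the chain genes 643 FPKM. The FPKM of Cd74 over that of the 3 chain genes together was 1.24 and 2.08 in monocytes, against 4.05, 3.49 and 2.59 in microglia. By group mean, the order in monocytes was Cd74, H2-Eb1, H2-DMa, H2-Aa, H2-Ab1, H2-DMb1, H2-DMb2 and Ciita. In microglia it was Cd74, H2-DMa, H2-DMb1, H2-Ab1, H2-Aa, H2-Eb1, Ciita and H2-DMb2. Neighbours in either order differed by less than their spread over libraries, with H2-DMb1 and H2-DMb2 in monocytes (0.300 ± 0.133 and 0.0449 ± 0.0635 FPKM, SD, n = 2) the exception, and both of these rested on 2 read pairs or fewer per library.

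To ask which of these genes differed between lesion monocytes and microglia, counts were compared by the quasi-likelihood test of edgeR, scaled by TMM, over all 10105 genes past the filter. It tested 6 of the 8 genes, since H2-DMb2 and Ciita did not pass, and none was called at an adjusted p under 0.05. Across all genes, 0.0594% were called higher in monocytes and 0% lower. The log2 fold change of monocytes over microglia was 10.14 for H2-Eb1 (SE 2.65, edgeR adjusted p = 0.0770). It was 5.77 for H2-Aa (SE 2.03, edgeR adjusted p = 0.176) and 5.22 for Cd74 (SE 2.30, edgeR adjusted p = 0.311). These 3 genes had an unadjusted p under 0.05, all with a positive log2 fold change, as did 8.52% of the genes tested in that direction, and none of the 6 had one in the other direction. The log2 fold changes of H2-DMa, H2-Ab1 and H2-DMb1 were 3.79, 2.11 and -2.82, with SE of 1.96, 1.79 and 2.27 and edgeR adjusted p of 0.425, 0.571 and 0.557. The study counts mice as its replicates, the labels tie no library to a named animal, and these p-values measure only the spread between these few libraries.

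The tests rested on monocyte library 2. Without monocyte library 1, edgeR called Cd74 (log2 fold change 5.91, adjusted p = 0.00664) and H2-Eb1 (log2 fold change 10.88, adjusted p = 4.42e-05), with 2.61% of all genes called higher, and the single monocyte library left was assumed to vary as microglia do. With monocyte library 2 left out instead, Cd74 stood at 0.62, H2-Eb1 at 1.71 and H2-Aa at 4.56 on the log2 scale, and H2-DMa changed direction, to -3.23. Tools also differed: limma-voom called none of the 6 (0.317% of all genes called higher), and DESeq2 called 4, Cd74, H2-Aa, H2-DMa and H2-Eb1 (9.77% of all genes called higher). An exact permutation test of 3 libraries against 2 cannot give a two-sided p below 0.1, so none was run.

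**Figure D3:**
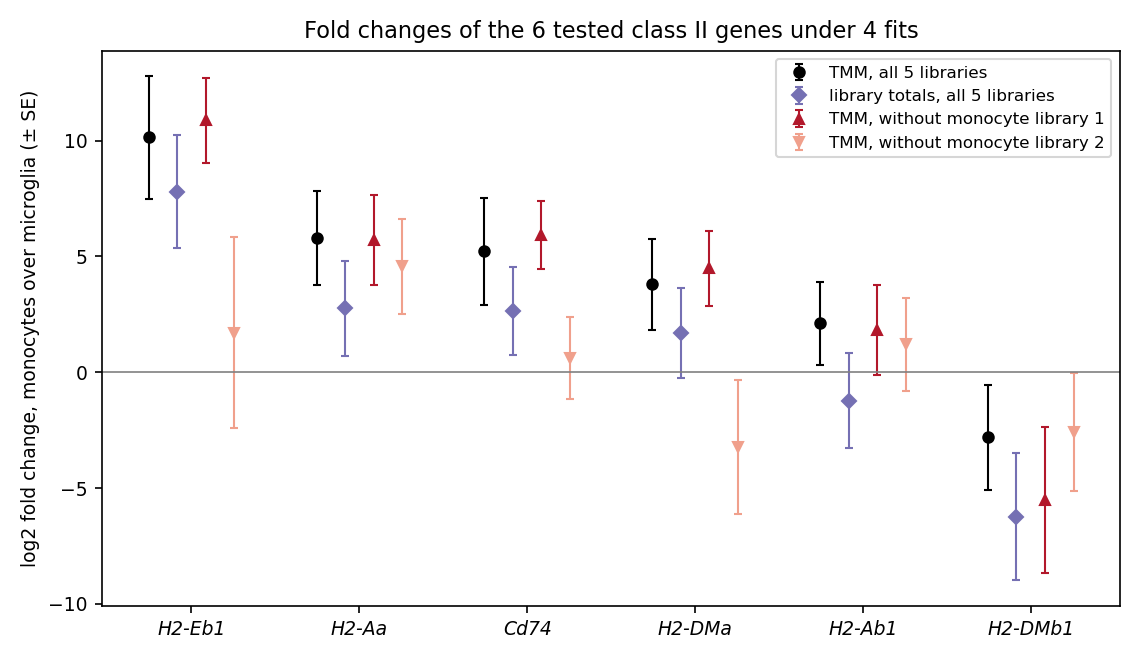
Log2 fold change of monocytes over microglia for the 6 tested genes with its standard error, from edgeR with TMM or library totals over all 5 libraries, and with TMM after leaving out either monocyte library. Without monocyte library 2 the value of H2-DMa is negative, and with library totals that of H2-Ab1 is.

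Scaling also shifted these values. The TMM factors were 0.0929 and 0.611 in monocytes, against 3.76, 2.73 and 1.71 in microglia, and the 10105 genes had a median log2 fold change of -1.11 with TMM and -4.73 with library totals. The median over the 6 tested genes was 4.50 with TMM and 2.18 with library totals, and the filter lets a gene through on the strength of the group in which it is high, so this median is a description. With library totals H2-Eb1 was at 7.80, H2-Aa at 2.75, Cd74 at 2.65, H2-DMa at 1.70, H2-Ab1 at -1.24 and H2-DMb1 at -6.24, each a log2 fold change of monocytes over microglia. H2-Ab1 alone changed direction between these scalings.

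Other genes of the pathway were read from 8 lists of 44 genes in all. Of these, 35 passed the filter and none was called in either direction by edgeR. Unadjusted p was under 0.05 for 5, Cd44, Ctsb, Ifngr2 and Sppl2a with positive and Cd274 with negative log2 fold changes, where 8.52% of all genes tested had such a p in the positive direction. In CPM, 12 of the 35 (34.3%) had both monocyte values under all microglia values and 3 had both above them, where 48% and 0.673% of all genes tested did, and the median log2 fold change was 0.70, against -1.11 for all genes tested.

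At the class II locus itself, the H2-DO genes were at their highest in microglia when scaled by library totals. H2-Ob, the β chain gene, had 2 and 59 read pairs in monocytes, against 89, 492 and 6550 in microglia, or 0.186 and 2.87 FPKM against 4.26, 17.3 and 353 FPKM. Its log2 fold change was -4.35 with TMM (SE 2.37, edgeR adjusted p = 0.450). Scaled by library totals, neither monocyte value reached the lowest microglia value, as for 48% of all genes tested. H2-Oa, the α chain gene, had 0 and 0 read pairs in monocytes, against 198, 6 and 0 in microglia. Microglia library 3 thus held 6550 read pairs of H2-Ob, 507 of H2-DMb1 and 253 of H2-DMa beside 0 of H2-Aa, 3 of H2-Ab1 and 0 of H2-Oa.

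Factors that bind class II promoters were read next (7 genes, 5 tested, none called). Creb1, an X-box factor, had 0.0213 and 36.7 FPKM in monocytes, against 11.5, 10.9 and 5.53 in microglia. Nfya and Nfyc encode subunits of NF-Y, which binds the Y box: Nfya had 0.360 and 1.85 FPKM in monocytes, against 24.4, 21.9 and 4.36 in microglia, and Nfyc had 0 and 24.99 FPKM in monocytes, against 3.38, 4.18 and 12.5 in microglia. In FPKM, Nfya was lower in each monocyte library than in any microglia library, and the other 2 genes overlapped between the groups. With TMM the log2 fold change of Nfya was -0.72 (SE 1.86).

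Of the interferon gamma route to Ciita (9 genes, 7 tested, none called), Ifng, the ligand gene, was listed at 0 FPKM in every library. Ifngr1 and Ifngr2 encode the chains of its receptor. Ifngr2 had 0.353 and 268 FPKM in monocytes, against 60.1, 20.7 and 1.13 in microglia, with the same 3 highest libraries as Cd74, in the same order. Ifngr1 had 0.925 and 170 FPKM in monocytes, against 64.8, 25.7 and 230 in microglia, and the receptor kinase gene Jak1 had 0.364 and 157 FPKM in monocytes, against 40.9, 19.9 and 50.7 in microglia. In all 3 genes monocyte library 1 was the lowest library.

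Of the genes that process antigen and the invariant chain (6 genes, 6 tested, none called), Ctss, Ctsb and Ctsd were abundant in all 5 libraries. Ctss, encoding cathepsin S, which makes the late cuts in the invariant chain, had 1999 and 1356 FPKM in monocytes, against 1792, 2753 and 1037 in microglia. Ctsb, a cysteine protease gene, had 2218 and 1267 FPKM in monocytes, against 895, 724 and 217 in microglia, and Ctsd, an aspartyl protease gene, had 1764 and 2086 FPKM in monocytes, against 3322, 717 and 115 in microglia. Monocyte library 1 was within or above the range of the microglia libraries for these 3 genes but not for the rest of the list. The cysteine protease genes Ctsl and Lgmn were at their lowest there, Ctsl with 10.4 and 124 FPKM in monocytes, against 637, 508 and 91.6 in microglia, and Lgmn with 6.30 and 125 FPKM in monocytes, against 393, 212 and 360 in microglia. Ifi30, encoding a thiol reductase of endosomes, had 1.19 and 0.627 FPKM in monocytes, against 50.3, 23.3 and 1.73 in microglia.

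Turnover and the receptor side of Cd74 were read last among the partners. Sppl2a, which encodes the intramembrane protease that removes the last invariant chain stub, had 301 and 78.8 FPKM in monocytes, against 45.3, 75.1 and 16.3 in microglia (log2 fold change 6.72, SE 2.79, edgeR adjusted p = 0.266). March1 and March8 encode ubiquitin ligases, the first of which sends surface class II for breakdown. March1 had 1.68 and 0.236 FPKM in monocytes, against 9.56, 14.5 and 14.2 in microglia, and March8 had 0 and 2.72 FPKM in monocytes, against 8.04, 1.91 and 2.47 in microglia. Scaled by library totals, both monocyte values of March1 therefore lay under all microglia values, and March8 overlapped between the groups. The log2 fold change of March1 was 0.79 with TMM (SE 1.82, edgeR adjusted p = 0.841) and -3.71 with library totals, so its direction depended on the scaling.

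Cd74 also serves at the surface as a receptor for the cytokine MIF, together with CD44. Cd44 had 22.9 and 12.7 FPKM in monocytes, against 3.65, 1.29 and 0.0251 in microglia (log2 fold change 8.12, SE 2.51, edgeR adjusted p = 0.110), and its monocyte values lay above all microglia values. Mif had 5.28 and 0 FPKM in monocytes, against 143, 10.4 and 0 in microglia, and the chemokine receptor gene Cxcr4 had 0.162 and 0 FPKM in monocytes, against 3.08, 0.920 and 0 in microglia. Neither list, turnover with 3 genes tested of 3 or MIF with 3 tested of 4, held a called gene.

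Ligands that T cells read beside class II had both monocyte values under all microglia values in CPM in 4 of the 5 tested genes (6 listed), and none was called. Cd274, encoding the inhibitory ligand PD-L1, had 0.0808 and 0.975 FPKM in monocytes, against 34.6, 75.8 and 145 in microglia (log2 fold change -4.96, SE 2.42, edgeR adjusted p = 0.387). Cd86, a ligand of CD28, had 0.799 and 9.35 FPKM in monocytes, against 30.0, 96.9 and 31.7 in microglia. Icosl, the ligand of ICOS, had 0.319 and 8.02 FPKM in monocytes, against 29.4, 12.1 and 17.6 in microglia. For all 3, neither monocyte value reached the lowest microglia value when scaled by library totals, as for 48% of all genes tested. With TMM the log2 fold change was only -0.77 for Cd86 (SE 1.89) and 0.18 for Icosl (SE 1.79), each within its SE of 0.

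Genes that neighbour the class II genes on chromosome 17 but serve other tasks gave 5 tested of 5 and none called. Brd2, a chromatin reader gene, had 0.281 and 40.3 FPKM in monocytes, against 28.8, 15.3 and 4.05 in microglia. Psmb8 and Psmb9 encode immunoproteasome subunits. Psmb8 had 0 and 16.4 FPKM in monocytes, against 11.7, 9.11 and 29.5 in microglia, and Psmb9 had 0 and 0.126 FPKM in monocytes, against 19.4, 10.8 and 0.0928 in microglia. Within this stretch of the chromosome, monocyte library 2 was thus highest in FPKM for H2-Eb1 and Brd2. Microglia library 1 was highest for Psmb9 and microglia library 3 for Psmb8, also in FPKM.

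Other cells that carry class II were read through their markers. The classical monocyte markers Ccr2, Ly6c2, Chil3 and Plac8 were all at 0 in both monocyte libraries, so these genes did not bear out the label of the CD45hi libraries. In microglia, Ccr2 had 12, 52 and 0 read pairs and Plac8 had 2, 14 and 0. Ly6c2 and Chil3 were at 0 in all 5 libraries, so they cannot tell the groups apart. All 7 microglia markers were detected in all 5 libraries, with sums of 469 and 1240 FPKM in monocytes, against 2685, 2062 and 3755 FPKM in microglia. Dendritic cell markers (9 genes) summed to 2.85 and 91.5 FPKM in monocytes, against 130.9, 31.3 and 32.0 in microglia, with Xcr1 and Cd209a at 0 in every library. Within that list Itgax had 30 and 2694 read pairs in monocytes, against 3816, 1264 and 19 in microglia, and Zbtb46 had 2 and 302 in monocytes, against 23, 23 and 0 in microglia. Itgae reached 842 read pairs, in microglia library 3. In monocyte library 2, the library with the most Cd74 and H2-Eb1, Zbtb46 and Itgax were the only 2 of the 9 above 0. Flt3, Clec9a, Batf3, Ccr7 and Itgae were at 0 there, and Batf3 and Flt3 reached 87 and 35 read pairs in microglia library 1. The part of dendritic cells in the class II values was not tested.

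B cell markers (8 genes) summed to 0.501 and 0.268 FPKM in monocytes, against 15.7, 0.954 and 1.73 in microglia, and Cd79a and Pax5 were at 0 in all 5 libraries. Cd79b had 124 read pairs in microglia library 1, the library with the most H2-Ab1, H2-Oa and Ciita, and its part in those values was not tested. Markers of border-associated macrophages (8 genes) summed to 0.313 and 0.499 FPKM in monocytes, against 27.8, 8.11 and 62.4 in microglia, nearly all from Stab1 (11 and 27 read pairs in monocytes, against 1751, 460 and 3743 in microglia). The 4 T cell markers were at 0 throughout. Endothelial markers (5 genes) summed to 0.298 and 36.5 FPKM in monocytes, against 6.24, 6.71 and 0.158 in microglia, and in monocyte library 2 nearly all of it was Flt1, at 3205 read pairs, with Pecam1 at 3 and Cldn5, Cdh5 and Tie1 at 0. Of the sorting antigens, Itgam (CD11b) differed widely between the monocyte libraries. It had 699 and 62696 read pairs in monocytes, against 32650, 63066 and 25955 in microglia, which is 40.7 and 1916 FPKM in monocytes. Ptprc (CD45) had 2349 and 3217 read pairs in monocytes, against 4887, 8412 and 14069 in microglia. In FPKM, Ptprc was at 37.5 and 27.0 in monocytes, against 40.2, 50.9 and 130 in microglia.

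The genes whose pattern was nearest to Cd74 were not of the class II pathway. Likeness was the root mean square difference between profiles of log2 (CPM + 1) over the 5 libraries, each centred on its own mean, among 8473 genes, and it is a description over few libraries that share their depth. The 5 nearest to Cd74 were Ppm1g, Iffo1, Crtc1, Slc16a3 and Ganc, at differences from 0.475 to 0.605, where the median gene was at 3.30. The class II genes themselves stood farther from Cd74, with H2-Aa at 1.73, H2-Ab1 at 1.77, H2-Eb1 at 2.14, H2-DMa at 2.56 and H2-DMb1 at 4.79. The 5 nearest to H2-Aa were Xpr1, Itga4, Cmas, Tubb6 and Parp4, at 0.292 to 0.582, where the median gene was at 2.83. H2-Aa, H2-Ab1, H2-Eb1 and H2-DMa were thus more like Cd74 than the median gene was, and H2-DMb1 was less like it. The nearest genes were picked from many, so their lead over the class II genes is a description.

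**Figure D4:**
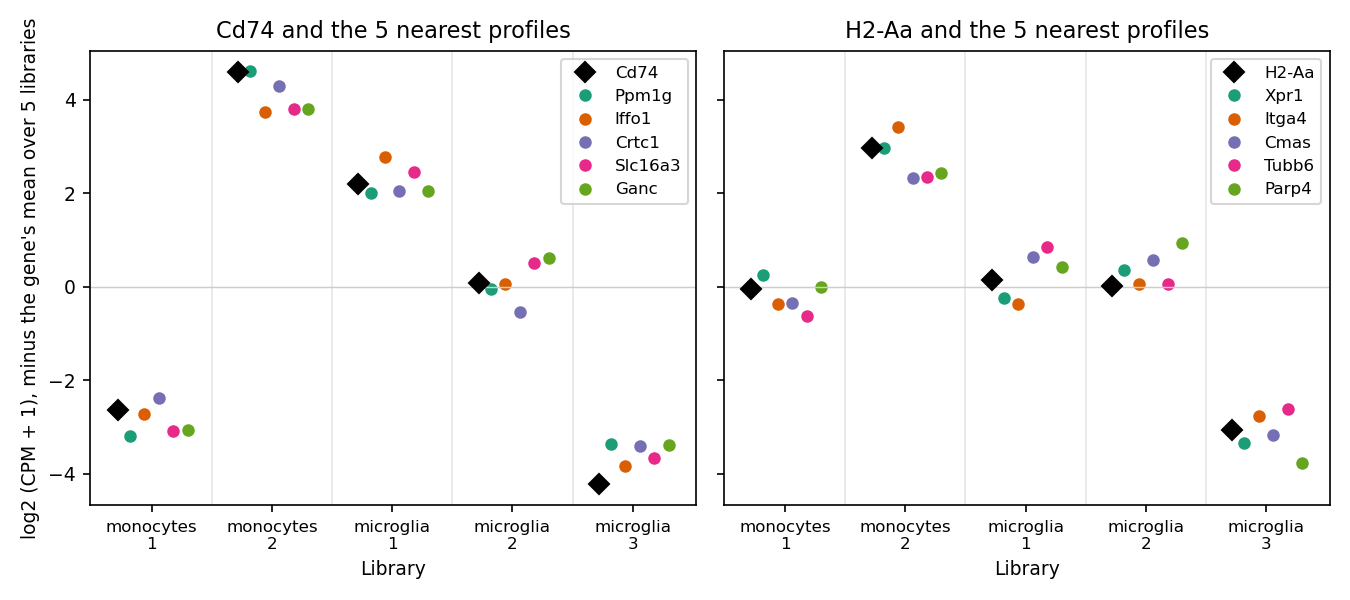
Centred log2 (CPM + 1) in each library for Cd74 (left) and H2-Aa (right), black diamonds, and for the 5 genes nearest to each, circles. Both sets of profiles peak in monocyte library 2 and are lowest in microglia library 3.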

How the data were processed

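The authors used STAR (2.5.2a, per the submitters' processing notes) and GRCm38, quantified read pairs over GENCODE vM12 genes, and deposited these counts along with FPKM. The deposited FPKM equal counts over library total and 1 gene length, with no TMM factor. Whether counting used strand is not given in the sources used here. Each of 3 tables also had 4 columns belonging to other samples, which were left out, as were the authors' log2 CPM or the fold changes and p-values of their comparison. Symbols held as dates (23 among the counts) were matched by gene identifier. Groups follow the sample labels.

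Counts were tested by edgeR 4.0.16 (R 4.3.3; TMM, filter on low expression by group, Benjamini-Hochberg over 10105 genes), with limma 3.58.1 (voom) and DESeq2 1.42.0 as alternatives, beside RLE factors, scaling by library totals, dropping the filter or asking for CPM above 1 in 2 libraries, and leaving out each library. Scripts were tested on simulated data. Python 3.11.15 with pandas 2.3.3, scipy 1.17.1 and biopython 1.88 gave values, 95% exact intervals and sequences. Where a gene had no count, 3 counts served as its upper limit.

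The 8 genes, the lists and the tests were chosen with earlier results of these data known. Genes were named by a rule: all 8 members, the 4 other class II locus genes, of other pathway lists those called and up to 3 with the highest mean FPKM, of cell type lists those with 100 or more read pairs in a library, and the 5 nearest profiles, leaving out symbols of predicted genes and those ending in Rik or -ps. The nearest profiles also left out the 8 members. Other genes were chosen after their values were seen. Results for some marker genes are left out.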

Additional observations from a re-analysis of the deposited data

How the results depend on the processing

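Of 65 log2 fold changes of the 6 tested genes under alternatives, 57 kept their direction and side of the threshold, 6 passed it (4 with DESeq2, and Cd74 and H2-Eb1 without monocyte library 1) and 2 changed direction: H2-Ab1 was at -1.24 with library totals, and H2-DMa at -3.23 without monocyte library 2 (-3.23 to 4.48 over each library left out). The number of class II genes called, 0, became 4 with DESeq2 and ranged from 0 to 2 when each library was left out. Of the 35 tested pathway genes, 0 were called by edgeR, 1 by limma-voom (Cd44) and 7 by DESeq2 (Ctsb, Ctsd, Ctss, Cd44, Ifngr2 and Sppl2a higher, Cd274 lower), and leaving out each library gave 0 to 3, with Ifngr2 called without monocyte library 1 and Cd44, Ctsb and Sppl2a without monocyte library 2. The 1 gene with both monocyte values under all microglia values, H2-DMb1, became 0 with CPM after TMM and 0 after RLE factors, and the count ranged from 1 to 3 when each library was left out, with 3 without monocyte library 2. The count of genes with both monocyte values above all microglia values was not repeated after TMM or RLE factors. The log2 fold change of H2-DMb1 was -0.46 without microglia library 3. The cause was not tested for any of these. Over all genes, edgeR called 6 higher, limma-voom 32, DESeq2 987 higher and 100 lower, edgeR without monocyte library 1 343 and without monocyte library 2 326, and no filter gave 70, RLE factors 7 and CPM above 1 in at least 2 libraries 14. Without mitochondrially encoded genes, the mean share of the 8 genes was 0.207% of counts in monocytes and 0.0331% in microglia, against 0.148% and 0.0271% with them. Raising the count minimum from 3 to 10 left 17 of 40 values below it in place of 15. No paired analysis was made, because the labels do not tell which libraries, if any, came from the same animals. The class II values of monocyte library 1 rest on 83 read pairs, and 1392 genes had at least 10 counts in that library.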

Other observations

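Further genes of class II regulation, chosen after their values were seen, are given here as read pairs. Irf1, an interferon-induced factor that acts on the Ciita promoter, had 0 and 3 read pairs in monocytes, against 149, 263 and 2 in microglia. Rfx5, which encodes a subunit of the X-box factor RFX, had 2 and 1 in monocytes, against 100, 125 and 137 in microglia, and Rfxank, another subunit gene, had 0 and 0 in monocytes, against 123, 5 and 1 in microglia. Irf8, a myeloid transcription factor gene, had 265 and 1879 read pairs in monocytes, against 4235, 2486 and 122 in microglia, and overlapped between the groups. Read pairs are not scaled for library depth. With TMM the log2 fold change of monocytes over microglia was -1.56 for Rfx5 (SE 2.39) and -3.27 for Irf1 (SE 2.70). For Irf8 it was 2.81 (SE 2.03). None of these was called by edgeR where it passed the filter, and Rfxank did not pass it.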
